A study of Homo sapiens with 14 samples.

Results

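The Fanconi anemia genes described here are 10 genes, FANCA, FANCB, FANCC, FANCD2, FANCE, FANCF, FANCG, FANCI, FANCL and FANCM, out of 57756 genes listed in each table. They were taken by symbol, and the set was chosen by its isoform usage: earlier results of these data had shown a switch between FANCB isoforms in the knockdown. RNA sequencing was done on 14 libraries of A549, a human lung carcinoma cell line, to examine splicing with normal or altered U2AF1, which as part of the U2AF heterodimer reads the AG at the 3′ splice site (the acceptor). In 4 groups endogenous U2AF1 was knocked down with a siRNA and a virus then supplied U2AF1 as construct v3 or v1, each with the substitution S34F or as wild type. The other groups were the knockdown with an empty vector, a control siRNA with an empty vector, and untreated cells. There were 7 groups of 2 libraries each, and the knockdown was thus shared by the mutant and wild-type construct groups and by the knockdown group. All cells came from 1 line, and the labels do not say that replicates were separate cultures, so the spread behind every p-value is that between these libraries and may be technical in origin.

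The Fanconi anemia pathway repairs DNA interstrand crosslinks, lesions that block the replication fork. A nuclear core complex of FANCA, FANCB, FANCC, FANCE, FANCF, FANCG, FANCL and FANCM acts as a ubiquitin ligase and places ubiquitin on FANCD2 and FANCI, which then clamp DNA and bring in nucleases and recombination factors. Loss of any of several of these genes causes Fanconi anemia, an inherited bone marrow failure syndrome with a high risk of cancer.

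The libraries differed in relative depth between 0.798 and 1.20, on a scale where their mean is 1, and had between 13734 and 14705 genes at 1 FPKM or more. FPKM is a fragment count divided by transcript length and by the size of the library. Fragments that several isoforms share cannot be counted apart, so FPKM per isoform is an estimate. A very small isoform value therefore does not show that the isoform was absent. U2AF1 was listed at 16.2 and 28.9 FPKM in knockdown libraries, against 117 and 119 FPKM in control siRNA libraries, so the knockdown mean was 19.1% of the control mean, and the 8 construct libraries lay between 2114 and 3852 FPKM. The A549 markers KRT8, KRT18 and AKR1B10 were at 945 FPKM or more in every library. The rest of the A549 markers were lower. AKR1C1 ranged from 141 to 201 FPKM, KRT19 from 10.2 to 76.8 FPKM, CDH1 from 8.71 to 34.8 FPKM and EPCAM from 2.20 to 5.53 FPKM. The leukocyte markers PTPRC, CD3E and LYZ were at 0.519 FPKM or less. CD68, also a leukocyte marker, was the only one of these 4 above 1 FPKM on average, between 14.4 and 60.2 FPKM. Of the fibroblast markers COL1A1 alone exceeded 1 FPKM on average and DCN was at 0, and 3 of 4 endothelial markers were in the tables, at 0.102 FPKM or less. In v1 S34F replicate 2 a single isoform of 75 bases, of AL132768.1, held 33.1% of the FPKM sum, and in knockdown replicate 1 an isoform of MIR1260B held 8.81%.

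All 10 members had a mean of at least 1 FPKM and entered the test. Because FPKM is per length, their levels can be ranked, with a limit. Gene FPKM is a sum over isoforms, and short isoforms can weigh heavily in it. ENST00000568670 of FANCI, with 285 bases, averaged 12.1 FPKM, and ENST00000470028 of FANCD2, with 449 bases, averaged 8.61 FPKM. FANCE and FANCF have 1 isoform each. FANCI, the partner of FANCD2 in the clamp, was the most abundant with a mean of 80.9 FPKM over the 14 libraries. FANCA at 39.9 FPKM and FANCG at 36.5 FPKM, which bind each other in the core complex, came next. FANCL, the catalytic ubiquitin ligase, averaged 28.3 FPKM and FANCD2 27.6 FPKM. FANCC averaged 16.6 FPKM, and a group of low genes followed: FANCM, a DNA translocase that anchors the core complex, at 5.52 FPKM, FANCF, an adaptor, at 4.93 FPKM, FANCB, the partner of FANCL in the catalytic module, at 4.83 FPKM, and FANCE, which joins the core complex to FANCD2, at 3.45 FPKM. Over the 14 libraries the range of each gene overlapped that of its neighbour in this order, except between FANCC, at 9.66 to 20.9 FPKM, and FANCM, at 3.504 to 8.89 FPKM.

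**Figure D1:**
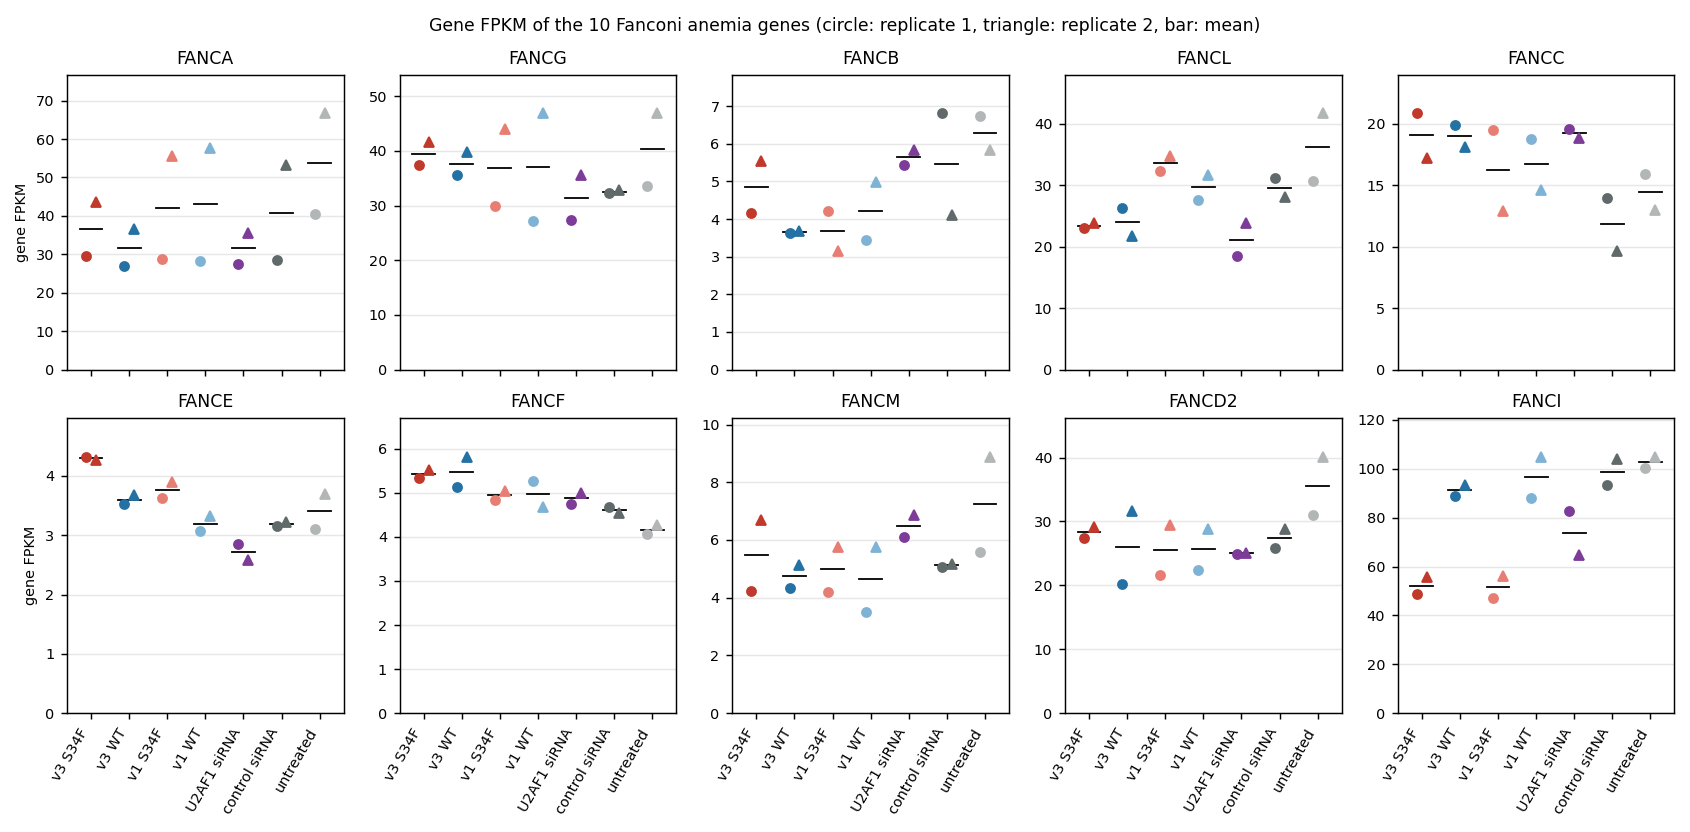
Gene FPKM (y axis, from 0) of each Fanconi anemia gene by group (x axis), with a circle for replicate 1, a triangle for replicate 2 and a bar for the mean. FANCI lies between 47.1 and 56.1 FPKM in the 4 S34F libraries, against 88.0 to 105 FPKM in the 4 wild-type libraries, while the S34F and wild-type points of each other gene overlap.

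The replicates moved some members together. FANCA, FANCD2, FANCG and FANCM were higher in replicate 2 than in replicate 1 in 7 of 7 groups, and FANCC in 0 of 7. Over the 14 libraries the correlation of log2(FPKM + 1) was 0.79 between FANCA and FANCD2 and -0.75 between FANCA and FANCC, as a description only, since the libraries share these replicate differences. FANCA ranged from 27.0 FPKM in v3 wild type replicate 1 to 66.8 FPKM in untreated replicate 2.

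The comparison of S34F with wild type asked whether the substitution in U2AF1 changed the pathway. FANCI fell, and it was the only member called. With S34F, FANCI had 48.7 and 55.6 FPKM in v3 libraries and 47.1 and 56.1 FPKM in v1 libraries. With wild type it had 89.0 and 93.6 FPKM in v3 libraries and 88.0 and 105 FPKM in v1 libraries. The 4 S34F libraries were all below the 4 wild-type libraries, and the S34F mean was 57.1% of the wild-type mean with v3 and 53.5% with v1. The log2 change, on the scale of log2(FPKM + 1), was -0.84 with a standard error (SE) of 0.10 (adjusted p = 0.0042, limma with Benjamini-Hochberg adjustment over all genes). Without v1 S34F replicate 2 it was -0.91 (adjusted p = 0.0126, limma).

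In this comparison 1 of 10 members was called, where 1.85% of the 14233 genes tested were called in either direction and 1.27% were called lower. FANCI was 1 of 181 genes called lower, and 42 of them, FANCI included, had a log2 change at least as low. In limma the fall with v1 alone was -0.89 (SE 0.15, adjusted p = 0.0486) and with v3 alone -0.80 (SE 0.15, adjusted p = 0.119, or 0.0315 with a replicate block). Over all genes tested, 0.176% were called with v1 alone and 0.0211% with v3 alone, or 0.485% with v3 alone and the replicate block. The difference between the constructs, v3 minus v1, was 0.09 (SE 0.21, adjusted p = 1). For the other 9 members the log2 changes lay between -0.03 and 0.19, with adjusted p between 0.454 and 0.981 in limma, and their libraries overlapped. FANCE had 4.33 and 4.27 FPKM with S34F in v3 and 3.63 and 3.90 FPKM with S34F in v1, against 3.52 and 3.67 FPKM with wild type in v3 and 3.06 and 3.33 FPKM with wild type in v1. It was higher with S34F within each construct and was not called (log2 change 0.19, SE 0.11, adjusted p = 0.454 in limma, or 0.271 with a replicate block). In limma 1 member had an unadjusted p under 0.05, where 15.9% of all genes did. The median over the 10 members was 0.07, against 0.02 over all genes tested. FANCD2, the partner of FANCI, had 27.4 and 29.2 FPKM with S34F in v3 and 21.6 and 29.4 FPKM with S34F in v1. It had 20.3 and 31.6 FPKM with wild type in v3 and 22.4 and 28.8 FPKM with wild type in v1. Its log2 change was 0.07 (SE 0.15), and the groups overlapped.

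The sum of the leukocyte markers differed between these groups, through CD68, which was not called. The summed level of PTPRC, CD3E, LYZ and CD68 was 39.5 to 60.3 FPKM in v3 S34F and 47.0 to 48.7 FPKM in v1 S34F, against 35.8 to 39.4 FPKM in v3 wild type and 24.2 to 29.1 FPKM in v1 wild type. Nearly all of that sum was CD68, with a log2 change of 0.60 between S34F and wild type (adjusted p = 0.179, limma), and the defining marker PTPRC was at 0.519 FPKM or less. The summed level of the 7 A549 markers was 3436 to 4251 FPKM in v3 S34F and 3595 to 4500 FPKM in v1 S34F, against 4195 to 4570 FPKM in v3 wild type and 4331 to 4567 FPKM in v1 wild type. The part of these differences in the FANCI result was not tested. In bulk RNA, fewer cells of a type and less RNA per cell cannot be told apart. FANCI overlaps 959 bases of POLG, the mitochondrial DNA polymerase gene, in the tables' GRCh37 coordinates. POLG averaged 35.1 FPKM with S34F and 28.1 FPKM with wild type (log2 change 0.32, SE 0.12, adjusted p = 0.235, limma), and with no statement on strand, reads of the shared stretch cannot be told apart.

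**Figure D2:**
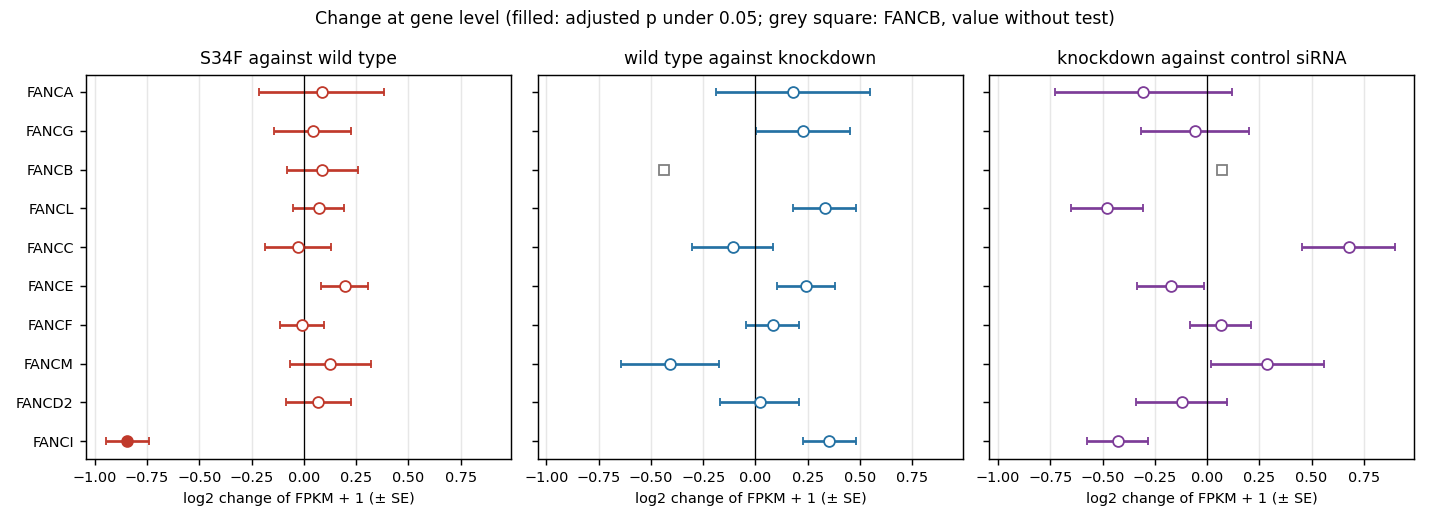
Log2 change of FPKM + 1 (x axis, with SE bars) of each member (y axis) in S34F against wild type, wild type against knockdown and knockdown against control siRNA. FANCI at -0.84 in S34F against wild type is the only filled point, and FANCB has a value without a test in the comparisons with the knockdown.

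FANCI is on chromosome 15 (GRCh37 chr15:89787180-89860492) and has 18 isoforms in the tables. The isoform with the highest mean, ENST00000310775, has 38 exons and 4743 bases and encodes 1328 amino acids. It had 11.03 and 2.11 FPKM with S34F in v3 and 9.08 FPKM and close to 0 (1.6e-05 FPKM, with the authors' upper bound at 0.0315) with S34F in v1. With wild type it had 35.8 and 32.5 FPKM in v3 and 34.4 and 28.2 FPKM in v1. Every S34F library was below every wild-type library. The mean over 4 libraries each was 5.56 ± 5.33 FPKM with S34F and 32.7 ± 3.32 FPKM with wild type (SD), a difference of -27.2 FPKM, out of -42.0 FPKM for the whole gene. The other 17 isoforms together averaged 46.3 FPKM with S34F and 61.2 FPKM with wild type. Of all 18, 13 were lower and 5 higher with S34F.

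In a limma fit on log2(isoform FPKM + 1), added after the data had been seen, ENST00000310775 fell by 2.93 (SE 0.62, adjusted p = 0.0423), or with adjusted p = 0.0188 with a replicate block. It was 1 of 49 member isoforms called there, where 2.34% of the 42893 isoforms tested were called. With the block 3 were called, all of FANCI, where 4.72% of all isoforms were called. Leaving out any of 6 libraries (each wild-type library and both S34F replicates 2) ended this call, as did a pseudocount of 0.1 or a fit with only the groups compared, with adjusted p between 0.0616 and 0.165 in limma. Without v1 S34F replicate 2 the change was -2.10 (adjusted p = 0.0616, limma). As a share of the gene, its usage was 22.7% and 3.80% with S34F in v3 and 19.3% and 2.9e-05% with S34F in v1. With wild type its usage was 40.3% and 34.7% in v3 and 39.1% and 26.8% in v1. The difference was -23.8 percentage points (SE 5.57), which was not called (adjusted p = 0.1005 in limma) but passed with a replicate block (adjusted p = 0.0207). Without v1 S34F replicate 2 the difference was -19.0 points (adjusted p = 0.268, limma).

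ENST00000447611, an isoform that GENCODE annotates as a target of nonsense-mediated decay, moved the other way. It had 8.72 and 17.2 FPKM with S34F in v3 and 10.4 and 18.5 FPKM with S34F in v1, against 6.27 and 10.8 FPKM with wild type in v3 and 7.64 and 11.99 FPKM with wild type in v1. The S34F and wild-type libraries overlapped, but each S34F library was above the wild-type library of its construct and replicate number. In the added fit of isoform FPKM this rise was not called without the replicate block. With each library left out its log2 change lay between 0.28 and 0.73 (adjusted p 0.290 to 0.867, limma). Its usage differed by 16.3 percentage points (SE 3.69, adjusted p = 0.0918 in limma, or 0.0251 with a replicate block), and by 13.6 points without v1 S34F replicate 2 (adjusted p = 0.259, limma). In limma 0 of 40 member isoforms were called for usage in S34F against wild type, where 0.748% of all isoforms tested were called, and 4 reached an unadjusted p under 0.05, as 11.9% of all isoforms did. Fitted with a replicate block, 2 were called, both of FANCI, where 1.14% of all isoforms were called. ENST00000566895, which retains an intron, had 7.89 and 15.1 FPKM with S34F in v3 and 6.78 and 17.6 FPKM with S34F in v1, against 6.44 and 13.7 FPKM with wild type in v3 and 6.56 and 17.7 FPKM with wild type in v1, and these overlapped.

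**Figure D3:**
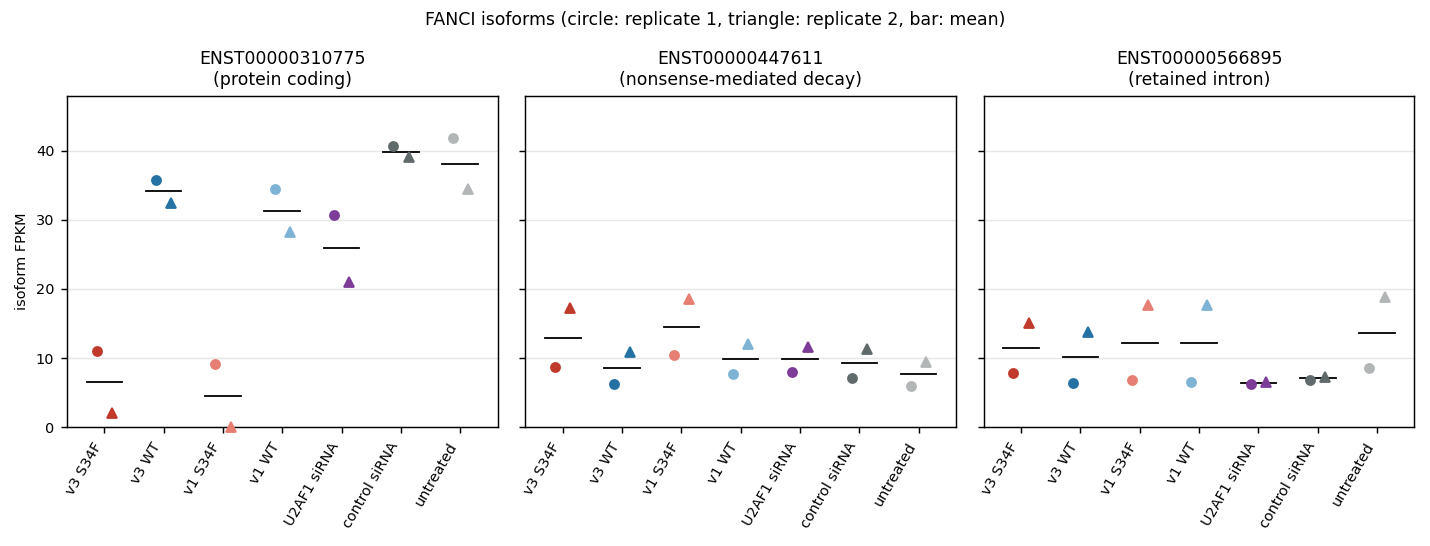
Isoform FPKM (y axis, from 0) of 3 FANCI isoforms by group (x axis), with a circle for replicate 1, a triangle for replicate 2 and a bar for the mean. The protein-coding ENST00000310775 is at 11.03 FPKM or less in the S34F libraries, against 28.2 FPKM or more in the wild-type libraries, while ENST00000447611 reaches 18.5 FPKM with S34F.

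The isoforms differ at a pair of exons, which are printed here because their inclusion separated the S34F libraries from the others. ENST00000447611, with 36 exons and 3690 bases, lacks exons 24 and 32 of ENST00000310775, which has 38 exons and 4743 bases. These exons are only part of the difference in length. Which stretch the opposite moves of these isoforms rest on was not tested. Exon 24 (GRCh38 chr15:89294915-89295094, plus strand) has 180 bases, a multiple of 3, and exon 32 (GRCh38 chr15:89306007-89306194, plus strand) has 188 bases, which leaves a remainder of 2. Both are coding, and their bases were read from the GENCODE transcript. In exon 32 the capitals mark the first 3 bases, which ENST00000561894 skips by starting that exon at an acceptor 3 bases further on, and exon 24 is in lower case throughout.
FANCI exon 24: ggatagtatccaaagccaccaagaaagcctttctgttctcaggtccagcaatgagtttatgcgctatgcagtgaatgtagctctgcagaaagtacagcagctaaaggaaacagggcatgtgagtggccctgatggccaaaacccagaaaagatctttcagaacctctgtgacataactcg
FANCI exon 32: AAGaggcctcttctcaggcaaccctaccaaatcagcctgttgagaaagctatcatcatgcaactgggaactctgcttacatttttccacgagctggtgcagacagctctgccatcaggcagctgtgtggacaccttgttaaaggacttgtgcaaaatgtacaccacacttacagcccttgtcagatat

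Inclusion was taken as the FPKM of the isoforms with an exon as a percent of the FPKM of all isoforms that span it, over isoforms whose length equals that in GENCODE, and it has no test. Exon 24 was included at 50.6% and 10.3% with S34F in v3 and at 46.6% and 8.5e-05% with S34F in v1. With wild type it was included at 73.2% and 69.998% in v3 and at 76.2% and 61.9% in v1. Every S34F library was below every wild-type library. Exon 32 was included at 60.05% and 15.9% with S34F in v3 and at 46.6% and 2.47% with S34F in v1, against 84.9% and 76.7% with wild type in v3 and 83.1% and 73.7% with wild type in v1. Here too the groups were apart. The replicates 2 were the lowest of the S34F libraries at both exons. All exons from exon 3 on, other than these, were included at 97.7% or more in each of the 8 construct libraries. An exon that every spanning isoform carries stands at the maximum by the way inclusion is counted. These high values thus follow largely from the annotated structures and are not a separate observation.

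These percentages rest on 5 spanning isoforms, and at exon 24 only ENST00000310775 of these includes the exon. Inclusion of exon 24 is thus the share of that isoform among them, given in another form. With ENST00000566895 counted as well, whose length differs from the annotated one, exon 24 stood at 63.7% and 48.4% with S34F in v3 and at 60.4% and 48.1% with S34F in v1. With wild type it then stood at 76.3% and 76.8% in v3 and at 79.2% and 72.6% in v1, and the groups remained apart. On the same measure exon 24 stood at 74.6% and 67.5% in the knockdown, against 77.7% and 79.6% with the control siRNA and 78.4% and 77.7% in untreated cells.

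**Figure D4:**
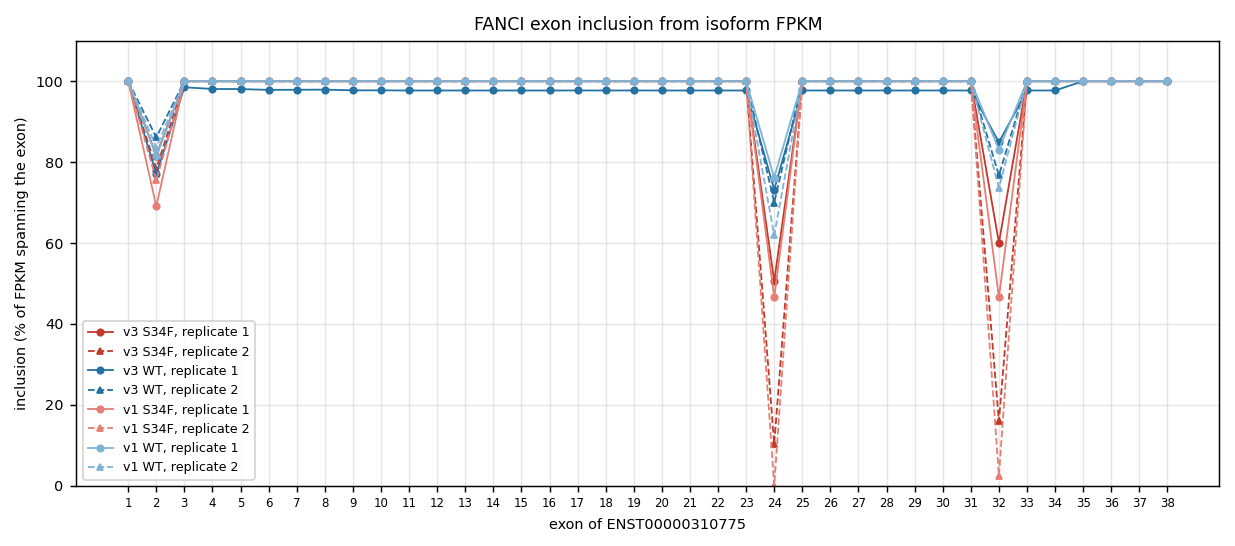
Inclusion of each exon of FANCI ENST00000310775 (x axis, exon number) in percent of the FPKM of isoforms that span it (y axis), for the 4 S34F and 4 wild-type libraries. Inclusion falls at exons 24 and 32, to 50.6% and 60.05% or less in the S34F libraries, against 61.9% and 73.7% or more in the wild-type libraries, and exon 2, a further dip, overlaps between the groups.

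The share of FANCI FPKM in isoforms annotated as protein coding was 49.7% and 22.7% with S34F in v3 and 35.4% and 15.2% with S34F in v1. With wild type it was 65.4% and 60.2% in v3 and 66.7% and 57.3% in v1. The groups did not overlap. The difference was -31.6 percentage points (SE 6.29, adjusted p = 0.0726 in limma), which passed with a replicate block (adjusted p = 0.0267) and, only just, without v3 S34F replicate 1 (-38.4 points, adjusted p = 0.0499). Without v1 S34F replicate 2 the difference was -26.6 points (adjusted p = 0.233, limma). Of 8 members with a coding share that could be tested, 0 were called, where 0.227% of 7486 genes were called, and FANCI alone reached an unadjusted p under 0.05, as 10.6% of all genes did. The replicate block gave 1 call, where 1.39% of genes were called. The median over these 8 was -5.83 points, against -0.90 points over all genes tested. FANCB, the next in size, differed by -22.9 points (SE 10.8, adjusted p = 0.505 in limma).

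The knockdown was compared with the control siRNA to see what the loss of U2AF1 did on its own. FANCB showed the switch that led to the choice of these genes, so its values are a description with no test. ENST00000324138 of FANCB had 3.38 and 3.91 FPKM in the knockdown, with the authors' bounds at 2.72 to 4.03 and 3.29 to 4.53, against 0.514 and 0.418 FPKM with the control siRNA. Its usage was 62.0% and 67.0% in the knockdown, against 7.55% and 10.2% with the control siRNA and 5.82% and 9.43% in untreated cells. The knockdown libraries lay above all other libraries, and the difference from the control siRNA was 55.6 percentage points. The gene as a whole did not follow: FANCB had 5.45 and 5.84 FPKM in the knockdown, against 6.82 and 4.12 FPKM with the control siRNA, and these overlapped.

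FANCB is on the X chromosome (GRCh37 chrX:14861529-14891191) and has 4 isoforms in the tables. ENST00000324138 lacks exon 2 of ENST00000398334, a noncoding exon of 121 bases upstream of the start codon, and both encode the same number of amino acids, 859. Exon 2 was included at 38.0% and 33.0% in the knockdown, against 92.5% and 89.8% with the control siRNA. These values count ENST00000489126, which retains an intron and does not splice at the exon 2 acceptor, as including the exon. It held 37.0% of FANCB FPKM in control siRNA replicate 1, and close to 0 in control siRNA replicate 2 and in both knockdown libraries. The acceptor of exon 2 is shown because ENST00000324138 does not use it. It spans GRCh38 chrX:14869038-14869067 on the minus strand and was read from ENST00000489126, a transcript that reads through it. The capitals mark the AG that ends the intron, with 22 intron bases before it and 6 exon bases after it.
FANCB exon 2 acceptor: atgtttattttctctaaaccatAGtttcat

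Of the 22 bases before the AG, 15 are T or C, and the base next to the AG, at position -3, is T. With wild-type U2AF1 supplied, far above its control siRNA level, usage of ENST00000324138 was 0.0001% and 0.0012% in v3 and 7.5e-30% and 26.5% in v1. It was 62.0% and 67.0% in the knockdown, and this is again a description. The v1 replicates stood far apart, and every wild-type library was below the knockdown libraries. With S34F its usage was 7.93% and 19.2% in v3 and 21.4% and 27.2% in v1, so that S34F and wild-type libraries overlapped through v1 wild type replicate 2. The difference of 12.3 percentage points between S34F and wild type (SE 5.23) was not called (adjusted p = 0.393, limma). ENST00000398334, the main FANCB isoform, had the largest usage difference of FANCB in that comparison, -29.9 points, with an SE of 16.5 (adjusted p = 0.555, limma). FANCB usage with wild type had a part in the choice of these genes. Both differences from it are therefore descriptions too, whatever their p-values.

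**Figure D5:**
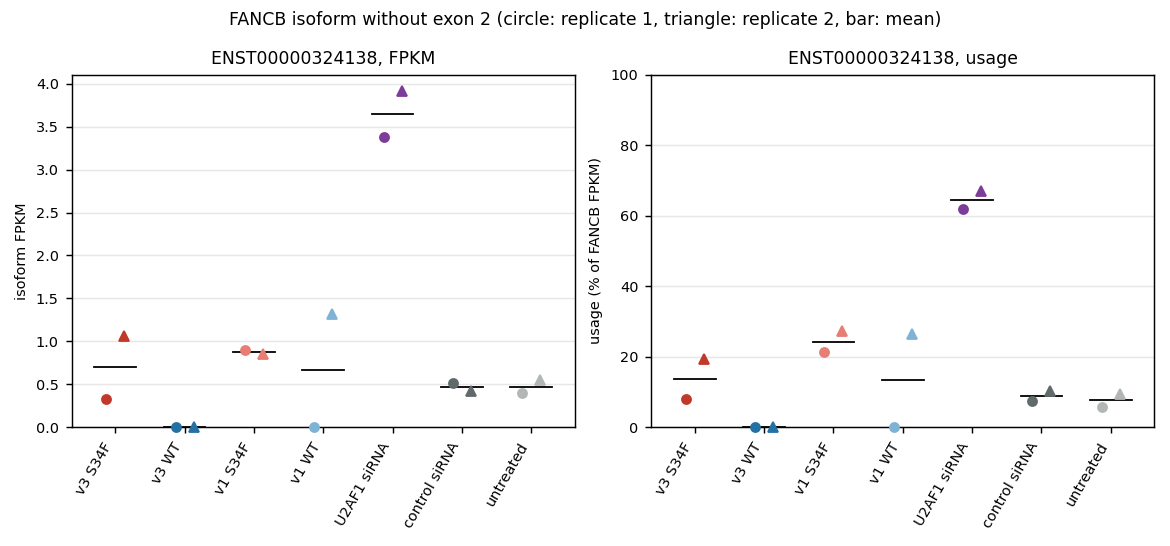
FPKM of FANCB ENST00000324138 (left, y axis) and its usage in percent of FANCB FPKM (right, y axis) by group (x axis), with a circle for replicate 1, a triangle for replicate 2 and a bar for the mean. The knockdown libraries stand at 62.0% and 67.0%, and all other libraries at 27.2% or less.

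Among the other members no gene was called in limma in the knockdown, where 2.85% of all genes were called. An unadjusted p under 0.05 was reached by 3 members, where 18.9% of all genes reached it. The replicate block called 1 of them, FANCC, where 11.8% of all genes were called. FANCC, a subunit that pairs with FANCE and FANCF, had 19.6 and 18.8 FPKM in the knockdown, against 13.95 and 9.66 FPKM with the control siRNA. The groups did not overlap, and untreated cells had 15.9 and 13.002 FPKM. The log2 change was 0.68 (SE 0.22, adjusted p = 0.131 in limma, or 0.0115 with a replicate block). ENST00000433829 of FANCC was listed at close to 0 in control siRNA replicate 2 and at 3.38 FPKM in replicate 1, so the control libraries differed in isoform as well as in level.

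FANCI had 82.7 and 64.7 FPKM in the knockdown, against 93.5 and 104 FPKM with the control siRNA, and the groups did not overlap. Its log2 change of -0.43 (SE 0.15) was not called (adjusted p = 0.147, limma). FANCL had 18.4 and 23.9 FPKM in the knockdown, against 31.2 and 28.1 FPKM with the control siRNA, with a log2 change of -0.48 (SE 0.17, adjusted p = 0.169, limma). Without knockdown replicate 1 the log2 change was -0.30 for FANCL, -0.60 for FANCI and 0.65 for FANCC, with adjusted p between 0.157 and 0.570 in limma. FANCM and FANCF were above the control siRNA libraries in both knockdown libraries, and FANCD2 and FANCE below them, with no call. FANCE, for example, had 2.85 and 2.58 FPKM in the knockdown, against 3.16 and 3.22 FPKM with the control siRNA. The log2 change of FANCD2 was only -0.12 (SE 0.22, adjusted p = 0.827, limma). With 2 libraries in each group, groups often stand apart without any real difference. The share of all genes whose groups stood apart was not counted, so separation alone is a description. Apart from FANCB, 0 member isoforms were called for usage in limma, where 0.117% of all isoforms were called, and 0 members for the coding share, where 0% of genes were called.

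Within FANCL, ENST00000402135 fell in the added fit of isoform FPKM. It had 1.20 and 1.81 FPKM in the knockdown, against 4.43 and 4.93 FPKM with the control siRNA. The groups did not overlap, though untreated cells had only 2.30 and 2.28 FPKM. The log2 change was -1.19 (SE 0.23, adjusted p = 0.0427 in limma, or 0.0231 with a replicate block), the only member isoform called, where 1.17% of all isoforms were called. The call was lost when any one of the 4 libraries compared was left out and with only these groups in the fit (adjusted p 0.0925 to 0.260 in limma). This isoform carries 15 bases more than ENST00000233741, the main FANCL isoform, at the donor end of exon 7 (GRCh38 chr2:58198579-58198662, minus strand). They are a multiple of 3, and the isoforms encode 380 and 375 amino acids. The exon is printed because these bases make up the whole difference in length, and the capitals mark the extra bases.
FANCL exon 7: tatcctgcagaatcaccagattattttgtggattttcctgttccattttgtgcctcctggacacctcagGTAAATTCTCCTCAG

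FANCL overlaps 678 bases of VRK2, a kinase gene, which was called lower in S34F against wild type (log2 change -0.43, SE 0.09, adjusted p = 0.0347, limma). That call was lost when any one of the 8 libraries compared was left out (adjusted p 0.0557 to 0.133, limma). FANCL itself had a log2 change of 0.07 there, and whether shared reads entered either value was not tested.

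Wild-type constructs were compared with the knockdown to see what changed when U2AF1 was supplied. This was not a return to the normal level. U2AF1 was at 2351 to 3313 FPKM in the wild-type libraries, against 117 and 119 FPKM with the control siRNA. No member was called in limma, where 1.43% of all genes were called, and 2 members reached an unadjusted p under 0.05, as 15.8% of all genes did. For usage, FANCB aside, 0 isoforms were called, where 0.362% of all isoforms were. FANCI had 89.0 and 93.6 FPKM with wild type in v3 and 88.0 and 105 FPKM with wild type in v1, against 82.7 and 64.7 FPKM in the knockdown, and the groups did not overlap. The log2 change was 0.35 (SE 0.13, adjusted p = 0.213, limma). FANCL had 26.3 and 21.8 FPKM with wild type in v3 and 27.7 and 31.7 FPKM with wild type in v1, against 18.4 and 23.9 FPKM in the knockdown, and these overlapped (log2 change 0.33, SE 0.15, adjusted p = 0.315, limma). FANCC stayed near its knockdown level, with 19.9 and 18.1 FPKM in v3 and 18.7 and 14.6 FPKM in v1, against 19.6 and 18.8 FPKM in the knockdown (log2 change -0.11, SE 0.19, adjusted p = 0.827, limma). The comparison shares the knockdown libraries with the one above, so opposite signs in both are not independent.

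In control siRNA against untreated cells 0 members were called by limma, where 0% of all genes were called and 5.13% had an unadjusted p under 0.05, and 0 members reached that. The log2 changes of the members lay between -0.41 and 0.12, below 0 for 9 of 10, with a median of -0.27 against -0.02 over all genes tested. Between the wild-type constructs, v3 against v1, 0 members were called, where 0% of all genes were called and 1.05% had an unadjusted p under 0.05, and the members lay between -0.36 and 0.19. No member was called for a different S34F effect in v3 and v1 at the level of the gene, of isoform usage or of the coding share, where again 0% of all features were called in limma. At gene level 0 members reached an unadjusted p under 0.05 for that difference, as 0.71% of all genes did.

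Usage of the isoforms of the other members did not pass the test, which covered isoforms with a mean usage of 5 to 95%, and the differences named here are the largest among those. FANCE and FANCF have 1 isoform each in the tables. FANCD2 ENST00000383807 had the largest usage difference of that gene in S34F against wild type, -8.20 points (SE 5.56, adjusted p = 0.665, limma), and in the knockdown, -12.7 points (SE 7.87, adjusted p = 0.651, limma). For FANCG the largest were -3.36 points for ENST00000481254 with S34F and -14.3 points for ENST00000378643, its main isoform, in the knockdown. For FANCM they were 8.70 points for ENST00000555013 with S34F and 15.1 points for ENST00000542564, its main isoform, in the knockdown. For FANCA they were 2.78 points for ENST00000305699 with S34F and 6.09 points for ENST00000389302 in the knockdown, while its most abundant isoform, ENST00000568369, averaged 20.1% of the gene. For FANCL both were ENST00000470506, which retains an intron, at -4.13 points with S34F and 9.62 points in the knockdown. For FANCC they were 5.58 points for ENST00000474949 with S34F and -13.9 points for ENST00000289081, its main isoform, in the knockdown. Adjusted p for these isoforms was 0.546 or more in limma.

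The wider pathway was followed in 45 genes in 5 lists: partners of the core complex, enzymes of deubiquitination and nucleases that act on or after FANCD2 and FANCI, homologous recombination, translesion synthesis and checkpoint signaling. All 45 were tested. In the knockdown 25 of them were above 0 and 20 below, and 1 was called, where 2.85% of all genes were, so the share is near the background. It was FAN1, a nuclease that binds ubiquitinated FANCD2. FAN1 had 8.11 and 6.20 FPKM in the knockdown, against 14.03 and 14.3 FPKM with the control siRNA, and the groups did not overlap (log2 change -0.90, SE 0.18, adjusted p = 0.0305, limma). The FAN1 call was lost when any one of these 4 libraries was left out, with changes between -1.07, without knockdown replicate 1, and -0.73 (adjusted p 0.0781 to 0.220, limma). It was also lost with no filter on low values or with only these groups in the fit (adjusted p = 0.0632 and 0.169, limma). In S34F against wild type 0 of the 45 were called and 3 had an unadjusted p under 0.05, where 1.85% and 15.9% of all genes did, with 19 above 0 and 26 below it. In wild type against knockdown 0 were called and 7 had an unadjusted p under 0.05, where 1.43% and 15.8% of all genes did. The 14 genes of homologous recombination had a median log2 change of -0.12 there, with 13 below 0, against 0.02 over all genes tested, and a median of 0.13 in the knockdown, with 11 above 0, against -0.01 over all genes. None of these 14 was called in limma.

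Fanconi anemia genes are expressed with the replication program, so 18 genes of G1/S and DNA replication were set beside them. None was called in limma in the 5 comparisons, where between 0% and 2.85% of all genes were. With S34F their median log2 change was -0.02, against 0.02 over all genes tested, with 8 above 0 and 10 below it, and 2 had an unadjusted p under 0.05, as 15.9% of all genes did. In wild type against knockdown their median was -0.27, against 0.02 over all genes, with 14 of 18 below 0. Of these 18 genes, 7 had an unadjusted p under 0.05, a larger share than the 15.8% of all genes. The list was not tested as a set.

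FANCI had the widest span of the members over the 7 group means, 0.98 on the log2 scale, and the genes most like it were TMLHE, IPO11, ALDH1A1, MYBBP1A and CNNM1. Over the 7 group means their Pearson correlation with FANCI was between 0.988 and 0.996, as a description, since they were picked for it among all genes tested. Over the 14 libraries it was between 0.558 for TMLHE and 0.922 for IPO11. IPO11, an importin, averaged 10.8 ± 0.827 FPKM in v3 S34F and 10.5 ± 0.913 FPKM in v1 S34F, against 17.6 ± 0.287 FPKM in v3 wild type and 17.7 ± 0.363 FPKM in v1 wild type (SD, n = 2 each).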

How the data were processed

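RNA-seq tables of 14 A549 libraries in 7 groups of 2 were used, grouped by the sample titles. The submitters' processing notes name Trimmomatic 0.30, TopHat2 2.0.12 and GRCh37, while the quantifier and its annotation were not given in the sources used here. The deposited tables hold, per the file headers, FPKM per isoform with confidence bounds, and a coverage value, whose ratio to FPKM gave relative depth. The number of reads is unknown, so no interval for counting error is given. FPKM keeps no whole reads, and no count model was used.

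Gene FPKM was the sum over a gene's isoforms. Usage was an isoform's percent of that sum, and the coding share the percent in isoforms that GENCODE 29 types as protein coding. limma 3.58.1 in R 4.3.3 was fitted to log2(FPKM + 1), with an intensity trend, for 14233 genes with a mean of at least 1 FPKM and all estimates marked OK. It was fitted to percentages for 41727 isoforms with a mean usage of 5 to 95% and for 7486 coding shares. A log2 change on this scale understates the change of low genes. One mean per group left 7 residual degrees of freedom, and an adjusted p under 0.05 (Benjamini-Hochberg over all features of a comparison) was called. The gene and usage fits were run on simulated data with independent, normally distributed libraries. The simulation held no shared replicate differences, unlike these data, so it cannot show how the fits behave with them.

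Replicate numbers came from the titles. Differences between replicate 2 and replicate 1 correlated between 0.16 and 0.571 over all 21 pairs of groups, so the numbers pair the libraries. The main fit left this pairing out, so shared replicate differences stayed in its spread, and a member not called there may pass with pairing. In the knockdown the SE was 0.42 without the block and 0.16 with it for FANCA, and 0.15 and 0.13 for FANCI. The replicate block was an alternative, with blocked values printed where they change a call.

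The members and gene lists were chosen with earlier results of these data known, and 1 of the leukocyte markers chosen, out of 5, was left out of every sum and is not reported here. Isoforms were named where they led a gene in mean FPKM, were called, or had the largest usage difference of a gene with S34F or the knockdown. The genes most like FANCI were the 5 with the highest correlation over group means. Exon structures and sequences are GENCODE 29 (GRCh38), matched by transcript identifier, and other coordinates are the tables' own (GRCh37). Alternatives covered the pseudocount, filters, scaling, the block, the libraries fitted and leaving out each library.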

Additional observations from a re-analysis of the deposited data

How the results depend on the processing

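The fall of FANCI in S34F against wild type was called under every alternative run, with a log2 change between -0.91 and -0.78 when each library was left out and between -0.86 and -0.83 otherwise. Other results moved as follows. The count of members called at gene level in the knockdown was 0 and became 1, FANCC, with the replicate block. The count of isoforms called for usage in S34F against wild type was 0 and became 2 with the replicate block. The count for the coding share in that comparison was 0 and became 1, FANCI, with the replicate block, 1 with a gene mean of at least 5 FPKM (adjusted p = 0.0499, limma), and lay between 0 and 1 when each library was left out. FANCI with v3 alone was also called with the replicate block, which changed no other call of a member in the gene, usage and coding-share tests. Over all genes tested the block took the calls to 1681 (405 without it) in the knockdown, 1070 (203) in wild type against knockdown and 1136 (264) in S34F against wild type. For usage it gave 107 (49) in the knockdown and 476 (312) with S34F, and for the coding share 104 (17) with S34F. No result changed direction under the alternatives run. The arcsine scale was not applied to the FANCB usage description. With each library left out, FANCC in the knockdown lay between 0.43 and 0.92, FANCL between -0.66 and -0.30 and FANCI between -0.60 and -0.25 on the log2 scale. FANCB ENST00000324138 usage lay between 53.1 and 58.2 points in the knockdown, and between -64.5 and -51.3 points in wild type against knockdown, where the v1 wild-type libraries set the ends. An intensity trend in the usage fit, added after the data were seen, changed no count of members. Isoforms of low genes such as FANCB rest on few fragments, and their number is unknown.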

Other observations

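The 13 mitochondrially encoded mRNAs, measured as a check on the libraries, had a log2 difference below 0 in control siRNA against untreated cells in 13 of 13 cases, with a median of -0.92, against -0.02 over all genes tested. In the knockdown all 13 were above the control siRNA, with a median of 0.64, against -0.01 over all genes. In the first comparison 0 were called in limma and 12 reached an unadjusted p under 0.05, where 0% and 5.13% of all genes did. In the second 0 were called and 0 reached it, where 2.85% and 18.9% of all genes did. The comparisons share the control siRNA libraries, which differed widely from each other. The summed level of the 13 was 17287 and 35959 FPKM in these libraries. It was 36114 and 39728 FPKM in the knockdown and 36465 and 57791 FPKM in untreated cells. The 13 mRNAs are not independent measures, so these counts are a description.

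ENST00000561894 of FANCI, which starts exon 32 at the later acceptor, had 1.48 and 0.339 FPKM with S34F in v3 and was listed close to 0 in both S34F libraries of v1, against 5.05 and 2.51 FPKM with wild type in v3 and 2.94 and 4.40 FPKM with wild type in v1. The groups did not overlap. Its log2 change was -1.77 (SE 0.47, adjusted p = 0.0900 in limma, or 0.0292 with a replicate block).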
